A study of Mus musculus with 4 samples.

Results

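Ifitm1, Ifitm2 and Ifitm3 were described across 4 single-cell libraries of sorted mouse regulatory T (Treg) cells. The 3 genes were taken by name from both expression tables, 3 of 22056 genes, and followed over the deposited cells, clusters and genotype labels. They encode small interferon-induced transmembrane proteins of the dispanin family. These proteins sit in the plasma membrane and in endosomes and hinder the fusion of enveloped viruses with the host membrane. Type I and type II interferons raise their transcription through STAT and IRF factors, which bind the interferon-stimulated response element (ISRE) and the gamma-activated site (GAS). Ifitm1 is found mainly at the cell surface, and Ifitm2 and Ifitm3 mainly on endosomes and lysosomes.

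The cells came from C57BL/6 mice and were sorted as live cells positive for CD4, TCRβ and YFP, a fluorescent reporter whose driver the labels do not give. Both tissues were taken from mice labelled ICOS WT and from mice labelled ICOS FC: spleen at steady state, and cervical lymph node (LN) draining the site of oxazolone, a contact sensitizer, 1 day after its application. ICOS is a costimulatory receptor of activated T cells, and the series calls ICOS FC mice ICOS-deficient. The labels do not state the age and number of the mice or which stretch of the gene was altered. Tissue and challenge changed together and cannot be told apart.

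Each of the 4 groups was 1 library, so no difference has a replicate check, no test was run, and every interval covers counting error only. The spleen libraries held 4995 (ICOS WT) and 5917 (ICOS FC) cells and the LN libraries 1897 and 2066, with 15045805 to 28256866 unique molecular identifiers (UMIs, the tags by which captured transcripts are counted) per library. Icos itself was higher in the libraries labelled ICOS FC, at 112 against 258 counts per 1000000 UMIs (CPM) for the spleen and at 598.5 against 927.8 CPM for the LN. The libraries are therefore named by their labels, and an exchange of labels would turn every direction given here between them. Foxp3, the defining factor of Treg cells, had spleen levels of 53.2 and 59.0 CPM and LN levels of 72.2 and 70.7 CPM. The LN libraries shared 30 cell barcodes, and in 27 of these the shallower cell held under 5% of the UMIs of the deeper one. In every pair of values the ICOS WT library comes first. A log2 ratio divides the ICOS FC level by the ICOS WT level and has its 95% counting interval in brackets.

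The members lie together on mouse chromosome 7 (GRCm38.p6). Ifitm2 spans 140954837 to 140955987 on the minus strand, Ifitm1 spans 140967221 to 140969825 on the plus strand, and Ifitm3 spans 141009586 to 141010770 on the minus strand. The promoters are shown because the members differed in the interferon-responsive cells described further on. Each sequence is from RefSeq, runs 5′ to 3′ along the gene from 250 bases before to 30 bases after the start in the RefSeq entry, and has in capitals the ISRE core (GAAA, any 2 bases, GAAA) and the GAS core (TTCNNNGAA).
Ifitm1 promoter, chr7:140967826-140968105, plus strand: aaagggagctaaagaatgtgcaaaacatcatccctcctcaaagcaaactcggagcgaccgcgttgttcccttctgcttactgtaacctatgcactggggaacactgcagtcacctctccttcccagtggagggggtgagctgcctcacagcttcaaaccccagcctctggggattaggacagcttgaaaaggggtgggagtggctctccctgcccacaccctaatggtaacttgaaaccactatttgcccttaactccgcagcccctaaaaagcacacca
Ifitm2 promoter, chr7:140955932-140956211, minus strand: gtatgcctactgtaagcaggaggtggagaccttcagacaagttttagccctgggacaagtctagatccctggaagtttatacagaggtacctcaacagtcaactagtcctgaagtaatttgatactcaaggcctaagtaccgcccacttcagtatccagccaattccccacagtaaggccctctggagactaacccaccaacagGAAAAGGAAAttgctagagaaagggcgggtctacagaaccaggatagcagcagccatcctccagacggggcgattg
Ifitm3 promoter, chr7:141010715-141010994, minus strand: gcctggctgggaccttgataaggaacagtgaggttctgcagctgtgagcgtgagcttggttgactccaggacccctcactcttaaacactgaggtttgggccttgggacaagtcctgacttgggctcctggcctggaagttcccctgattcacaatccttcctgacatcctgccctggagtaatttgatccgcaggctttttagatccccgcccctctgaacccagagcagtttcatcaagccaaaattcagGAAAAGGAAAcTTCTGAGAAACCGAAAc
On both strands, the Ifitm3 window held 2 ISRE cores, starting 3 and 20 bases into the transcript, and 1 GAS core that starts at base 14 and overlaps the second ISRE core. The Ifitm2 window held 1 ISRE core, starting 46 bases before the transcript, with the same letters as the first core of Ifitm3. The Ifitm1 window held neither; it surrounds the start of the RefSeq entry, which lies within the gene span given above, and the other starts of its 3 annotated transcripts were not searched. Of 32817 RefSeq windows of the same length, 3.27% held an ISRE core and 7.83% a GAS core. A match is a description of the letters, and a window without one says nothing about the factors.

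The level of each member differed widely between the libraries. Ifitm1 was listed at 0 UMIs in both spleen libraries, in 0 of 4995 and 0 of 5917 cells, which allows up to 0.110 and 0.106 CPM and up to 0.0601% and 0.0507% of cells with a UMI. In the LN it had 1330 and 474 UMIs, 88.4 [83.7, 93.3] and 27.4 [24.9, 29.9] CPM. Ifitm2 had 285 and 206 UMIs in the spleen, 10.5 [9.30, 11.8] and 7.29 [6.33, 8.36] CPM. In the LN Ifitm2 had 1970 and 438 UMIs, 131 [125, 137] and 25.3 [23.0, 27.8] CPM. Ifitm3 had 89 and 128 UMIs in the spleen, 3.27 [2.63, 4.03] and 4.53 [3.78, 5.39] CPM. In the LN Ifitm3 had 1705 and 1053 UMIs, 113 [108, 119] and 60.8 [57.2, 64.5] CPM. For every member the LN library labelled ICOS WT was the highest of the 4 and the LN library labelled ICOS FC the second, and the order of the 2 spleen libraries was not the same for Ifitm2 and Ifitm3. These are 3′ tag counts, which were not divided by transcript length, and levels are compared here within a gene.

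**Figure D1:**
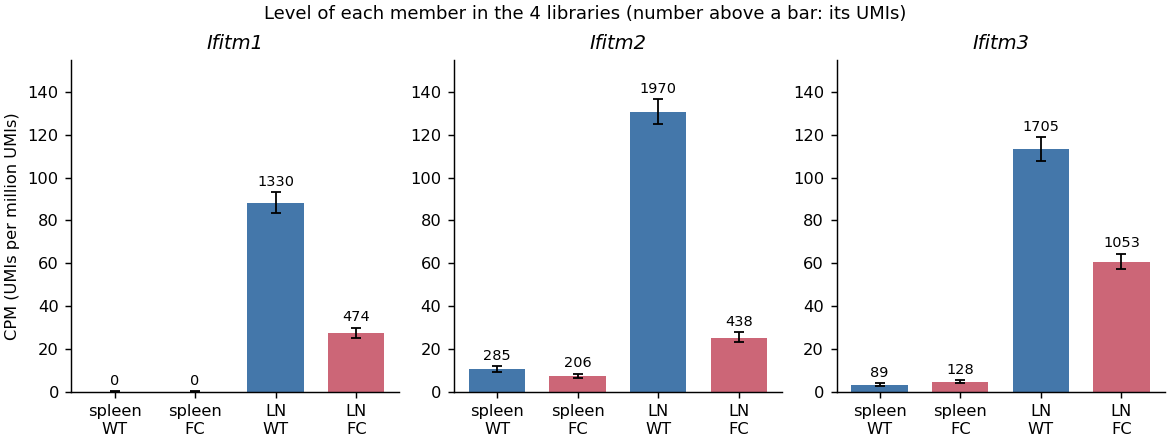
Level of each member in CPM (y axis) in the 4 libraries (x axis), with 95% Poisson counting intervals and the number of UMIs above each bar. The LN library labelled ICOS WT holds the highest bar of each gene, at 88.4, 131 and 113 CPM, and Ifitm1 is at 0 in both spleen libraries.

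Between the LN libraries all 3 members were lower under the ICOS FC label, which is how they came to be chosen, so their ratios are a description. Ifitm2 had a log2 ratio of -2.37 [-2.53, -2.22], Ifitm1 of -1.69 [-1.85, -1.54] and Ifitm3 of -0.90 [-1.01, -0.79]. In CPM, the library labelled ICOS WT was 5.18-fold, 3.23-fold and 1.87-fold higher. Counted from the lowest ratio, Ifitm2 was in place 1, Ifitm1 in place 5 and Ifitm3 in place 17 of the 5506 genes with at least 20 CPM in an LN library. Genes were called by size: 20 CPM or more in either library, 1.5-fold or more, and a counting interval that does not reach equality. Of the members, 3 of 3 passed this rule as lower, where 1.05% of the 5506 genes were lower and 1.11% higher. The Ifitm3 difference was under 1.5-fold with cells thinned to 2000 UMIs (-0.49), as the mean CPM per cell (-0.39) and with clusters weighted equally (-0.22), so its call ends under these settings. In the spleen, where 0.588% of 5105 genes were higher and 0.255% lower, 0 of 3 members reached 20 CPM. There Ifitm2 had a log2 ratio of -0.52 [-0.79, -0.26] and Ifitm3 of 0.47 [0.07, 0.88], so only Ifitm2 had the same sign in both tissues. The Ifitm3 spleen value turned to -0.26 in the cells with a Foxp3 UMI and was 1.10 with every cell thinned to 2000 UMIs.

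**Figure D2:**
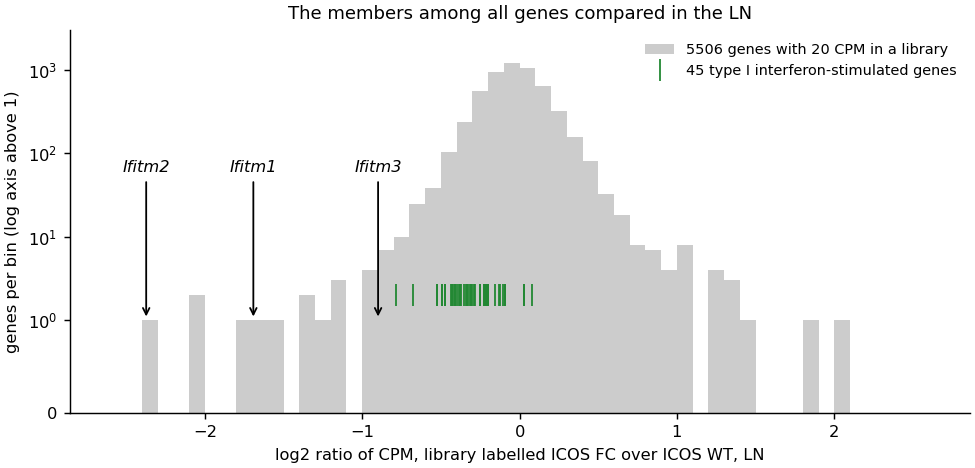
Number of genes (y axis, log scale above 1) per bin of the log2 ratio of CPM between the LN libraries, ICOS FC over ICOS WT (x axis), for 5506 genes. Arrows mark the members at -2.37, -1.69 and -0.90, and green ticks mark 45 type I interferon-stimulated genes, which lie to the right of all 3 in summed CPM.

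Within each label, the LN library was above the spleen library for all 3 members. In summed CPM, Ifitm1 was at least 801-fold (ICOS WT) and at least 258-fold (ICOS FC) higher, taking 3 counts in the spleen library as its limit. These bounds cover the spleen side only, and the LN level rests on few cells. As log2, they were 9.65 and 8.01, and with cells thinned to 2000 UMIs 7.18 and 5.52. Without spleen cluster 4 and LN clusters 6 and 7 they were 8.71 and 5.92. Ifitm2 was 12.5-fold and 3.47-fold higher and Ifitm3 34.6-fold and 13.4-fold higher. By a rule of 2-fold, 5.33% of 5519 genes (ICOS WT) and 5.90% of 5470 genes (ICOS FC) were higher in the LN and 0.471% and 0.676% lower, and 3 of 3 members were among the higher genes under both labels. From the highest ratio down, Ifitm1, Ifitm3 and Ifitm2 were in places 1, 3 and 12 under ICOS WT and in places 1, 10 and 103 under ICOS FC. Type I interferon-stimulated genes were higher in the LN as a list, 42 of 45 measured members (ICOS WT) and 36 of 43 (ICOS FC), with medians of 2.02 and 1.49 beside 0.13 over all genes under either label.

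The UMIs of the members sat in few cells, least evenly for Ifitm1. In the LN, Ifitm1 was seen in 32 of 1897 cells (1.69% [1.16, 2.37]) and 8 of 2066 (0.387% [0.167, 0.761]). A single cell held 435 of the 1330 UMIs in the library labelled ICOS WT (32.7%) and a single cell 281 of the 474 in the other (59.3%). The 10 leading cells of the first library held 97.7% of its Ifitm1 UMIs, and 3 cells of the second held 98.9%. Another 18 and 5 cells had 1 Ifitm1 UMI each. The counting intervals treat UMIs as independent and are too narrow for such a gene. Without the 1 leading cell of each library the Ifitm1 ratio was -2.42, and without the 5% of cells with most UMIs it was -0.79.

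Ifitm2 was seen in 12.4% [10.9, 14.0] and 7.74% [6.63, 8.98] of LN cells, and with cells thinned to 2000 UMIs in 6.07% [5.02, 7.27] and 2.54% [1.90, 3.33]. A cell with Ifitm2 held 8.38 and 2.74 of its UMIs on average, and 40 and 9 cells had 10 or more. Those 40 cells carried 79.4% of the Ifitm2 UMIs under the ICOS WT label, and the 9 cells 38.1% under the other. Ifitm3 was seen in 14.1% [12.6, 15.8] and 13.1% [11.7, 14.7] of LN cells, or 7.71% and 5.88% after thinning. Its cells held 6.36 and 3.89 UMIs on average, and 36 and 21 had 10 or more. The Ifitm3 shares before thinning lay within each other's intervals, while the mean per carrying cell differed. After thinning, each Ifitm3 share lay outside the interval of the other, though the intervals overlap. In the spleen, thinned cells had Ifitm2 in 1.53% and 1.09% and Ifitm3 in 0.285% and 0.694%, and before thinning 4.08% and 2.60%, and 1.28% and 1.64%. Spleen cluster 4, where summed Treg markers were lowest of the spleen clusters, gave the low reference before thinning, with Ifitm2 in 0.407% and 0.458% and Ifitm3 in 0.407% and 0.305% of its cells at median depths of 5492 and 4845 UMIs, beside 5044 and 4361 in the whole libraries.

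**Figure D3:**
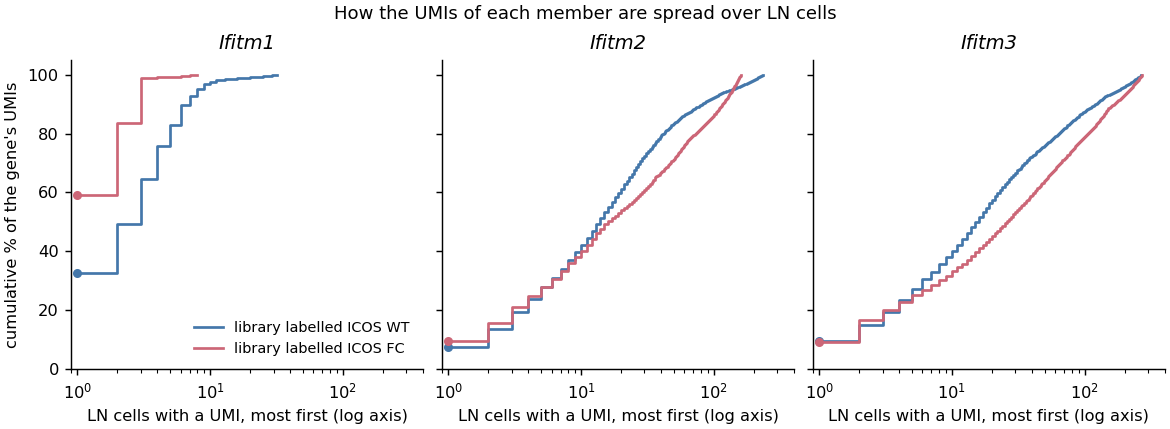
Cumulative percent of a gene's LN UMIs (y axis) over the cells that carry it, ranked from most UMIs (x axis, log scale), per library. Ifitm1 reaches 97.7% within 10 cells of the library labelled ICOS WT and 98.9% within 3 cells of the other, while Ifitm2 and Ifitm3 rise over more than 100 cells.

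The 13 LN cells with 10 or more Ifitm1 UMIs fell into 2 kinds by their other transcripts. In the library labelled ICOS WT, the 3 such cells of cluster 7 had 435, 92 and 22 Ifitm1 UMIs, with 40, 26 and 5 UMIs of Cd8b1, a chain of the CD8 coreceptor, and 0 of Foxp3 and Cd4. In the library labelled ICOS FC, the 2 such cells of cluster 7 had 281 and 72 Ifitm1 UMIs, 42 and 24 of Cd8b1, and 0 of Foxp3 and Cd4. The sort was for CD4, and these 5 cells show transcripts of CD8 in place of Cd4. The other 7 cells labelled ICOS WT, 6 of cluster 0 and 1 of cluster 4, had 222, 200, 150, 94, 39, 35 and 10 Ifitm1 UMIs, and 4 of them had a Foxp3 UMI. The remaining cell labelled ICOS FC, of cluster 0, had 116 Ifitm1 UMIs, 28 of Ifitm2, 80 of Ifitm3, 5 of Foxp3 and 24 of Ikzf2, a Treg transcription factor. All 13 cells held Ifitm2 UMIs, and all 13 held transcripts of Gzmb, the cytotoxic protease granzyme B, at 6 to 604 UMIs a cell. Their depth was high, at medians of 17516 and 18952 UMIs a cell beside 6591 and 6789 in the libraries, and whether any was a pair of cells was not tested. The cell of cluster 4, with 36775 UMIs, shares its barcode with a cell of the other LN library. Leaving out every cell with a shared barcode gave LN ratios of -1.64, -2.31 and -0.82 for Ifitm1, Ifitm2 and Ifitm3.

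The deposited LN clusters were made from all genes, these 3 included, and Ifitm1 is itself among the 10 leading genes of cluster 7, so levels by cluster are a description. Cluster 0 was effector Treg-like by Klrg1 and Cxcr6 and the summed effector markers (5528 CPM), with S100a4 and Ccr2 also leading. It held 525 and 681 cells. Ifitm2 there was at 302 and 35.5 CPM (-3.09 [-3.31, -2.87]), Ifitm3 at 234 and 64.4 CPM (-1.86 [-2.04, -1.69]) and Ifitm1 at 163 and 20.7 CPM (-2.98 [-3.28, -2.70]). All 3 passed the rule as lower in cluster 0, where 2.40% of 5655 genes did, at places 4, 10 and 5 from the lowest for Ifitm2, Ifitm3 and Ifitm1. Without the 10 leading cells of each library the Ifitm2 ratio was -2.98 and the Ifitm3 ratio -1.92, while 1 cell held 116 of the 117 Ifitm1 UMIs under ICOS FC. Of the Ifitm2 UMIs of the library labelled ICOS WT, 1364 of 1970 came from this cluster, and 201 of 438 of the other. Thinned to 2000 UMIs, 13.0% [10.2, 16.2] and 3.84% [2.52, 5.58] of the cluster 0 cells had Ifitm2 and 10.5% and 5.02% had Ifitm3.

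Cluster 4, led by Shmt1, Srm and Hspd1, genes of biosynthesis and of mitochondrial protein folding, had the same direction. Ifitm2 was at 135 and 24.9 CPM (-2.44 [-2.79, -2.09]) and Ifitm3 at 99.7 and 53.8 CPM (-0.89 [-1.17, -0.61]), both past the rule as lower, as were 2.57% of 5482 genes. Ifitm1 had 39 and 0 UMIs in cluster 4, 35 of them in 1 cell. Its difference thus rests on 1 cell. Single cells also held 111 of the 313 Ifitm2 UMIs under ICOS WT and 96 of the 192 Ifitm3 UMIs under ICOS FC. Without the 1 leading cell of each library the ratios were -2.10 (Ifitm2) and -1.34 (Ifitm3), and without the 10 leading cells -1.22 and -0.43, the last under 1.5-fold.

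Cluster 7 was CD8 T and NK-like, with Cd8a, Cd8b1 and Klrd1 among its leading genes beside the activation genes Egr2, Egr3 and Nr4a1. It held 66 and 57 cells, in which 7 of the 8 CD8 T and NK markers were detected and summed to 671 CPM, beside 42.3 CPM in the other LN cells. Over whole LN libraries these markers summed to 68.1 and 58.3 CPM, with Ncr1, an NK receptor, at 0 under ICOS WT. Markers of conventional CD4 T cells were also high in cluster 7, at 655 CPM beside 265 CPM in the other LN cells. Its Treg markers summed to 2396 CPM, beside 3956 CPM in the other LN cells. Ifitm1 was at 971 and 723 CPM in cluster 7 (-0.43 [-0.62, -0.23]), under 1.5-fold, and was seen in 5 of 66 and 2 of 57 cells. Ifitm2 was at 308 and 141 CPM (-1.12 [-1.55, -0.71]) and Ifitm3 at 241 and 137 CPM (-0.81 [-1.26, -0.38]), both past the rule as lower, as were 6.04% of 5730 genes. These calls rest on a handful of cells: the 5 leading cells held 95.4% and 100% of the Ifitm2 UMIs and 96.4% and 94.0% of the Ifitm3 UMIs. Without the 1 leading cell of each library the ratios were -1.80 and -0.96, and without the 5 leading cells Ifitm3 was at -0.07. Without clusters 6 and 7 the whole-LN Ifitm1 ratio was -2.91, against -1.69 with them. That value too rests on few cells, most of them in cluster 0. There, 5 cells held 95.5% of 738 Ifitm1 UMIs under ICOS WT, and 1 cell held 116 of 117 under ICOS FC. The part of cluster 7 in the Ifitm1 difference was not tested.

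Cluster 5 was interferon response-like, led by Rsad2, Oasl1, Ifit3, Usp18 and Mx1, antiviral effectors and regulators of the interferon response. Its summed Treg markers were the lowest of the LN clusters, at 1309 CPM. Ifitm3 was at 134 and 315 CPM in its 119 and 104 cells, a log2 ratio of 1.23 [0.89, 1.58], the reverse of the whole library. It passed the rule as higher at place 53 from the highest of 4915 genes, where 3.11% were higher. Thinned, 16.0% [9.90, 23.8] and 26.0% [17.9, 35.5] of the cells had an Ifitm3 UMI, and these intervals overlap. The 10 leading cells held 57.3% and 60.7% of these UMIs, and without the 10 leading cells of each library, an alternative chosen after seeing the data, the log2 ratio was 1.14. The members parted here: Ifitm2 had 3 and 0 UMIs and Ifitm1 had 0 and 0. In the windows shown above, Ifitm2 and Ifitm3 hold an ISRE core of the same letters, 46 bases before the transcript and 3 bases into it. The Ifitm3 window also holds a second ISRE core and a GAS core, which the Ifitm2 window lacks. The part of these letters in the levels was not tested.

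Of 48 measured members of the type I list in cluster 5, 1 was higher, 0 were lower and 47 lay between. This count is near the share over all 4915 genes, of which 3.11% were higher. The median of the list was 0.01 beside -0.01 over all genes of the cluster. The 1 list member that was higher was Ifi44, at 46.4 and 94.2 CPM, named here after its values were seen. Isg15, a ubiquitin-like modifier, was at 2179 and 2344 CPM (0.10 [0.01, 0.20]), and Bst2, the tetherin that holds budding virus at the cell surface, at 959 and 1188 CPM (0.31 [0.17, 0.45]).

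In LN clusters 1, 2, 3 and 6, Ifitm2 and Ifitm3 stayed at 43.5 CPM or less. Cluster 1, led by Ly6c1, Igfbp4 and Bcl2, had Ifitm3 at 34.5 and 37.1 CPM (0.10 [-0.31, 0.51]) and Ifitm2 at 4.83 and 3.92 CPM. Cluster 2, follicular Treg-like by Tox2, Pdcd1 and Sostdc1, had Ifitm2 at 36.4 and 26.4 CPM (-0.46 [-1.03, 0.09]) and Ifitm3 at 14.6 and 11.2 CPM (-0.37 [-1.29, 0.49]). Neither cluster showed a difference beyond its counting interval. Cluster 3, led by Bcl2, Gbp2b and Gpr83, had Ifitm3 at 23.4 and 36.9 CPM (0.66 [0.00, 1.36]), past the rule as higher, as were 5.03% of 5187 genes. Ifitm2 in cluster 3 had 2 and 24 UMIs, 1.87 and 9.72 CPM, with a wide interval of the log2 ratio, 2.38 [0.37, 5.50]. Cluster 6, led by H2-Eb1, H2-Ab1 and Mki67, was shallow, with medians of 2022 and 1788 UMIs a cell, and had 4 and 4 UMIs of Ifitm2 and 9 and 7 of Ifitm3.

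**Figure D4:**
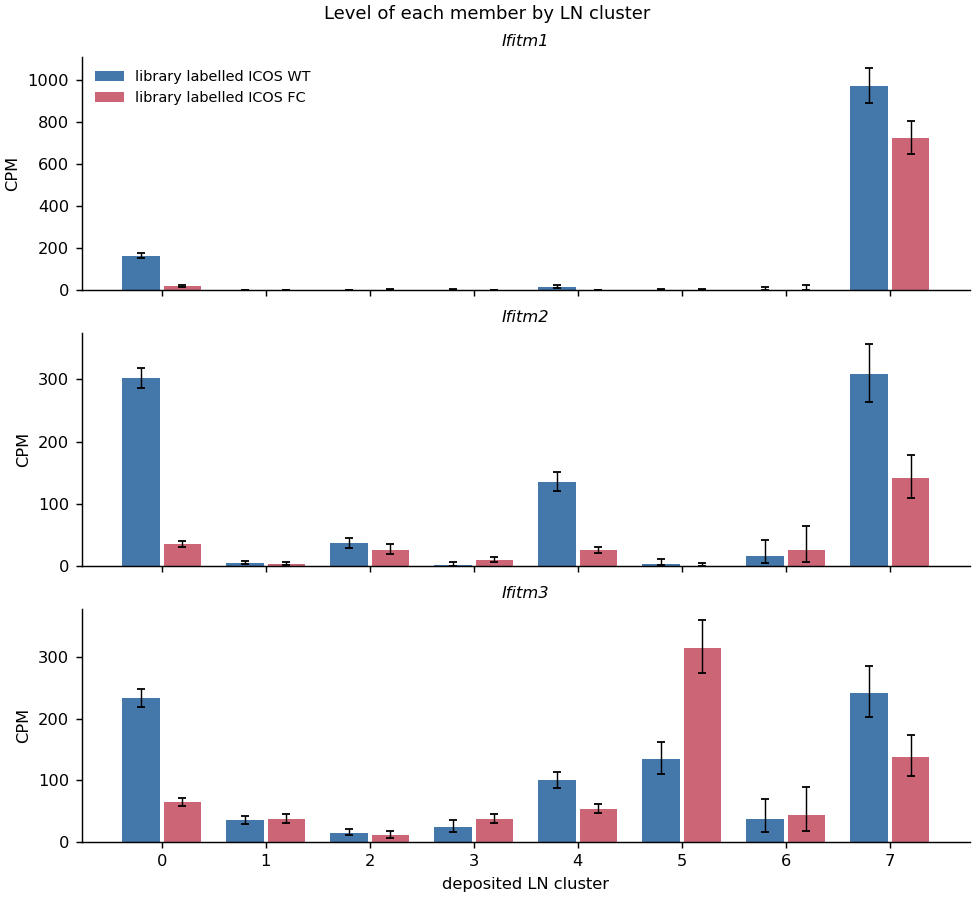
Level of each member in CPM (y axis) in each deposited LN cluster (x axis), library labelled ICOS WT in blue and ICOS FC in red, with 95% Poisson counting intervals. Ifitm2 stands at 302 and 35.5 CPM in cluster 0, Ifitm1 at 971 and 723 CPM in cluster 7, and Ifitm3 is higher under ICOS FC in cluster 5, at 134 and 315 CPM.

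Within the phases that the deposited cell table gives, the LN difference was present in G1 and S. Ifitm2 was at 121 and 19.1 CPM in G1 and at 171 and 29.6 CPM in S. Ifitm3 was at 106 and 67.1 CPM in G1 and at 142 and 51.2 CPM in S, where 1 cell held 96 of the 246 UMIs under ICOS FC. Ifitm1 was at 106.9 and 10.7 CPM in G1, with 435 of 1155 and 116 of 120 UMIs in 1 cell each. In S, Ifitm1 was at 22.3 [17.7, 27.7] and 15.2 [11.9, 19.1] CPM, and these intervals overlap. There 39 of 81 and 72 of 73 Ifitm1 UMIs were in 1 cell each. In G2M, with 70 and 87 cells, Ifitm2 was at 71.1 and 62.4 CPM, with 35 of 43 and 41 of 81 UMIs in 1 cell each. Ifitm3 was at 62.9 and 40.9 CPM in G2M, with 20 of 38 and 35 of 53 UMIs in 1 cell each. Ifitm1 was higher under ICOS FC in G2M, at 155.5 and 216.6 CPM, with 92 of 94 and 281 of 281 UMIs in 1 cell each.

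In the spleen, Ifitm2 and Ifitm3 were highest in different clusters. Ifitm2 was highest in cluster 1, follicular Treg-like by Sostdc1, Pdcd1 and Tox2, at 32.0 and 21.9 CPM (-0.55 [-0.92, -0.18]), and in cluster 5, led by Ccl4, Nr4a1 and Egr3, at 29.2 and 8.36 CPM (-1.80 [-2.78, -0.92]). Those clusters supplied 132 and 48 of the 285 Ifitm2 UMIs of the library labelled ICOS WT, and 115 and 14 of the 206 of the other. In cluster 2, led by S100a4, Ccr2 and S100a6 as LN cluster 0 was, Ifitm2 was at 12.7 and 5.56 CPM (-1.20 [-1.95, -0.48]). Cluster 0, led by Bcl2 and Gpr83, had 3.71 and 3.85 CPM (0.05 [-0.64, 0.74]).

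Ifitm3 was highest in spleen cluster 6, interferon response-like by Ifit3, Ifit1, Rsad2, Isg15 and Irf7, at 64.8 [36.3, 107] and 64.5 [45.1, 89.2] CPM, from 15 and 36 UMIs. Ifitm2 had 0 and 3 UMIs there. This cluster held 47 and 117 cells, 0.941% and 1.98% of the libraries, and supplied 16.9% and 28.1% of the Ifitm3 UMIs. The level was nearly the same under both labels, while the share of cells in the cluster was not. The likeness of the levels rests on few cells, as 1 cell held 7 of the 15 UMIs under ICOS WT and 1 cell 5 of the 36 under ICOS FC. The group labelled ICOS WT is under the 50 cells needed for a ratio. Elsewhere Ifitm3 was at 0.608 to 5.72 CPM. Ifitm3 with few or no Ifitm2 UMIs was thus seen in the interferon response-like cells of both tissues, but was not particular to them. With both libraries together, LN cluster 1 had 204 UMIs of Ifitm3 and 25 of Ifitm2. LN cluster 3 had 116 and 26, and LN cluster 0 had 1419 and 1565.

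**Figure D5:**
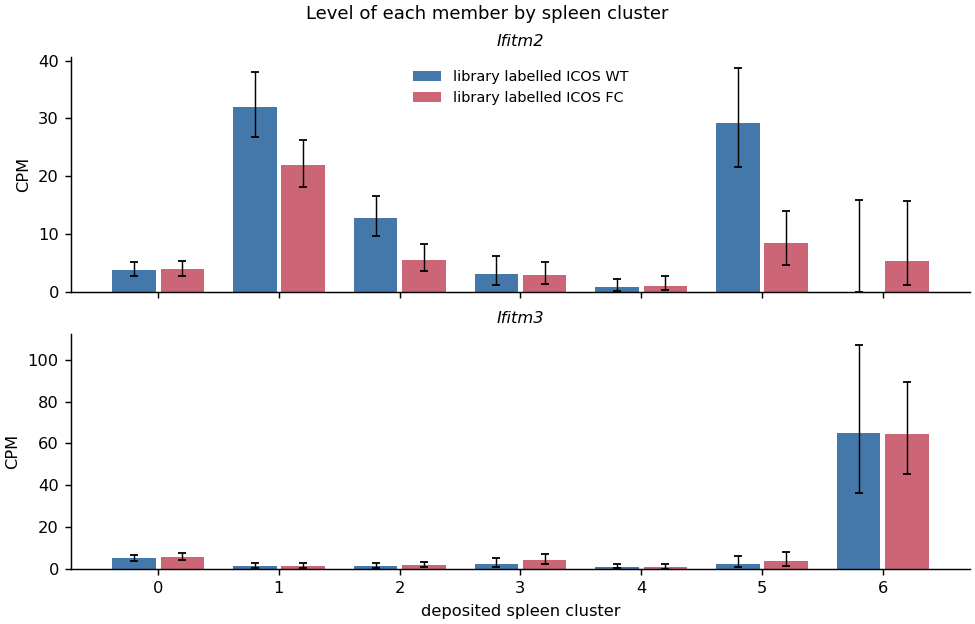
Level of Ifitm2 and Ifitm3 in CPM (y axis) in each deposited spleen cluster (x axis), library labelled ICOS WT in blue and ICOS FC in red, with 95% Poisson counting intervals. Ifitm2 is highest in clusters 1 and 5, and Ifitm3 in cluster 6, at 64.8 and 64.5 CPM.

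Detection of Ifitm2 and Ifitm3 in the same LN cell was counted over all LN cells. With cells thinned to 2000 UMIs under the ICOS WT label, 29 of 111 cells with Ifitm2 also had Ifitm3 (26.1%), against 112 of 1717 cells without Ifitm2 (6.52%). Of 19 cells with Ifitm1, 13 had Ifitm2 and 11 had Ifitm3. Under the ICOS FC label, 7 of 51 cells with Ifitm2 had Ifitm3 (13.7%), against 111 of 1956 without it (5.67%). The transcripts share only short stretches near their 3′ ends, where the tags are read. Of 470 words of 31 bases in the last 500 bases, 10 (Ifitm1 and Ifitm2), 35 (Ifitm1 and Ifitm3) and 39 (Ifitm2 and Ifitm3) were shared. These are 2.13%, 7.45% and 8.30%, and 0 of 410 words of 91 bases were shared. How the authors' counting treated reads that match more than 1 member is not stated in the labels, so small counts of 1 member beside large counts of another are uncertain.

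Within LN cluster 0, cells with 5 or more UMIs of a member were set beside cells with 0, as a description of cells picked by the member itself. Under ICOS WT, the 42 cells with Ifitm2 had Gzmb at 11235 CPM against 1988 CPM in 409 cells without it. Nkg7, a granule protein of cytotoxic cells, was at 769 against 126 CPM, and Id2, a transcriptional regulator of effector lymphocytes, at 820 against 251 CPM. The 39 cells with Ifitm3 had Gzmb at 9326 against 2316 CPM and Isg15 at 1776 against 890 CPM. Isg15 beside Ifitm2 was at 1097 against 942 CPM, and Ifit3, an interferon-induced RNA-binding protein, at 127 against 256 CPM. Under ICOS FC the 9 cells with Ifitm2 had Gzmb at 4985 against 911 CPM, and the 18 cells with Ifitm3 had Isg15 at 1828 against 628 CPM and Bst2 at 1854 against 604 CPM. Gzmb was thus higher in the cells with either member, while Prf1, the perforin gene, was at 17.6 against 13.6 CPM beside Ifitm2 under ICOS WT. Markers of CD8 T cells were also higher in the picked cells under ICOS FC: Cd8a was at 43.7 against 0.633 CPM beside Ifitm2 and at 46.1 against 0.418 CPM beside Ifitm3, from 5 and 9 UMIs, and Cd8b1 at 52.5 against 21.7 CPM and 128 against 20.1 CPM. Under ICOS WT, Cd8a was at 0 in the picked cells. The part of such cells was not tested. The picked cells were deeper, with medians of 9058 to 13118 UMIs against 6568 to 6594, and the part of depth in these values was not tested.

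Across 29 units of 1 cluster in 1 library with 50 or more cells, centred within each tissue, the genes most like Ifitm2 were Id2 (r = 0.87), Sh2d2a (0.87), Nkg7 (0.86), Ier5 (0.85) and Rilpl2 (0.85), among 5405 genes and on log2(CPM + 5). Those most like Ifitm3 were Slfn2 (0.78), Isg15 (0.75), Bst2 (0.73), Ly6a (0.70) and Cmpk2 (0.70). Those most like Ifitm1 were Ly6c2 (0.83), Cd8b1 (0.81), Ier2 (0.81), Bcl10 (0.76) and Lat (0.75). Ifitm1 was at 0 in all 13 spleen units, which thus enter its values only through the spread of the other gene. Over the 16 LN units alone, the genes most like Ifitm1 were Egr3 (0.92), Egr1 (0.91), Ly6c2 (0.91), Ier2 (0.89) and Nab2 (0.88). Outside clusters 0 and 7 and cluster 4 under ICOS WT, Ifitm1 was at 1.32 CPM or less in the LN units. Its r values thus rest on few units and few cells. Single cells held 435 of 552 and 281 of 353 Ifitm1 UMIs in cluster 7 and 116 of 117 in cluster 0 under ICOS FC. Within the LN, r was 0.83 for Ifitm1 and Ifitm2, 0.60 for Ifitm1 and Ifitm3, and 0.37 for Ifitm2 and Ifitm3, and within the spleen it was -0.13 for Ifitm2 and Ifitm3. The units share libraries and clustering, so r is a description with no p.

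The levels behind these values followed the clusters. In LN clusters 0 and 7, Id2 was at 344 and 131 CPM and at 334 and 262 CPM, against 22.0 and 19.4 CPM in cluster 5. Isg15 was at 2179 and 2344 CPM in cluster 5 and at 965 and 677 CPM in cluster 0.

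The interferon pathway was read from lists written with earlier results of these data known. In the LN, 45 of 49 type I interferon-stimulated genes reached 20 CPM, of which 0 were higher, 2 were lower and 43 lay between, with a median log2 ratio of -0.31 beside -0.03 over all genes. The 2 lower genes were Ifit3b, at 62.9 and 36.5 CPM (-0.78 [-0.93, -0.64]), and Ifi213, a sensor-family gene, at 103 and 64.7 CPM (-0.68 [-0.79, -0.57]). Of these 45 genes, 42 had a counting interval below equality and 0 above it. Over all 5506 genes, 1.11% were higher by the rule and 1.05% lower. The interferon response markers summed to 8530 and 6811 CPM in the LN libraries, and their part in the members' difference was not tested. The ratios of all 3 members lay below those of the 45 genes in summed CPM, but the list was not ranked under the settings that bring Ifitm3 to -0.49, -0.39 and -0.22. Of 16 measured interferon-gamma inducible GTPases, 0 were higher and 1 was lower, Tgtp1 at 33.2 and 21.4 CPM (-0.63 [-0.83, -0.43]), with a median of -0.13. Of 13 receptors and signalling genes, 0 were higher and 0 lower, with Jak2, a receptor kinase, at 50.8 and 38.8 CPM (-0.39 [-0.54, -0.24]) and Irf1 at 191 and 164 CPM (-0.22 [-0.29, -0.14]). In the spleen, 32 type I genes, 11 GTPases and 12 receptors and signalling genes were measured, 0 were higher and 0 lower in each list, and the medians were 0.10, 0.02 and -0.02.

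Genes of the same antiviral or biochemical setting that reached 20 CPM did not pass the rule in either tissue. Of 8 measured restriction factors, 0 were higher and 0 lower, although 6 of the 8 LN intervals lay below equality and 0 above (median -0.15), with Bst2 at 633 and 567 CPM and Ly6e, a surface protein that limits coronavirus entry, at 1787 and 1602 CPM in the LN. Of 6 measured genes for proteins known to modify or bind Ifitm3, 0 passed in either tissue, with Zdhhc20, a palmitoyltransferase, at 90.2 and 81.7 CPM and Vcp, an ATPase that extracts ubiquitinated proteins from membranes, at 197 and 180 CPM in the LN. Of 9 other dispanin genes in the table, 0 reached 20 CPM. Ifitm10 was highest of the other Ifitm genes, with 2.24 and 1.35 CPM for the spleen libraries and 0.731 and 0.635 CPM for the LN, and Ifitm5, Ifitm6 and Ifitm7 had 0 to 7 UMIs in a library.

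The effector Treg list had LN intervals on both sides of equality. The median was -0.25, and 8 intervals lay above equality and 13 below. Where 1.11% of all 5506 genes were higher by the size rule and 1.05% lower, 0 of 21 were higher, 5 lower and 16 between. The lower ones included Nkg7 at 123 and 36.2 CPM (-1.76 [-1.89, -1.63]), Gzmb at 1362 and 480 CPM (-1.51 [-1.54, -1.47]) and Id2 at 153 and 80.8 CPM (-0.92 [-1.01, -0.82]). Within cluster 0, 8 of 21 were lower, with Nkg7 at 213 and 44.7 CPM (-2.25 [-2.46, -2.05]) and Gzmb at 3266 and 1000 CPM (-1.71 [-1.75, -1.66]), beside 5 lower and 0 higher of 45 type I genes. Over all 5655 genes of cluster 0, 2.40% were lower. In cluster 7, singled out after its values were seen, Gzmb was higher under ICOS FC, at 273 and 1260 CPM (2.21 [1.95, 2.47]), while Ifitm2 and Ifitm3 were lower there. The cluster 7 cells with 10 or more Ifitm1 UMIs held 47, 36 and 6 Gzmb UMIs under ICOS WT. Under ICOS FC such cells held 147 and 436, so the 1260 CPM rest largely on 2 cells. The ratio without them was not computed. Of 10 resting Treg genes, 0 passed in the LN, with a median of -0.10. In the spleen, 2 of 14 effector genes were higher and 2 lower, Lag3, an inhibitory receptor, at 15.3 and 49.0 CPM (1.68 [1.52, 1.85]) and S100a4 at 255 and 145 CPM (-0.81 [-0.87, -0.76]) among them, and 0 of 10 resting genes passed. Over all 5105 spleen genes, 0.588% were higher and 0.255% lower.

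The neighbours of the locus had smaller LN differences. Of the 10 protein-coding genes on either side, 7 of 20 reached 20 CPM in an LN library, of which 0 passed the rule. The 12 with at least 5 CPM had log2 ratios from -0.50 to 0.07 with a median of -0.03. Psmd13, a proteasome subunit, was at 95.4 and 100 CPM (0.07 [-0.03, 0.17]) and Pkp3, a desmosomal plaque protein, at 203 and 173 CPM (-0.23 [-0.30, -0.16]). In the spleen, 11 of the 20 had 5 CPM, and ratios ran from -0.30 to 0.35.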

How the data were processed

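Gene expression was measured in 4 libraries of sorted Treg cells made with 10x Genomics 3′ chemistry, 1 per group. The submitters' processing notes name Seurat 3.0, R 3.6.1, Cell Ranger 4.0.0 and GRCm38.p6 (mm10), without settings; whether doublets were removed before deposit is not stated. As the values show, the authors deposited natural log values: ln(1 + x), where x is a gene's UMIs scaled to 10000 in each cell. The deposited cell tables give each cell's UMI count, cluster, phase, genotype column (Control or KO, matched to ICOS WT and ICOS FC from the words alone) and the percent of mitochondrial counts, which was not used.

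UMIs were recovered by undoing the log and the scaling with each cell's deposited total, and came out whole within 0.001 in 100% of 17846401 spleen and 8798056 LN values. These were summed per library or cluster and divided by the total (CPM). Log2 ratios have exact conditional Poisson intervals and shares exact Clopper-Pearson intervals, both at 95%; 3 counts served as the limit of a count of 0. A ratio within a cluster needed 50 cells of each library. Genes were called at 20 CPM and 1.5-fold (2-fold between tissues) with an interval clear of equality. Cells were also thinned to 2000 UMIs, leaving out 89 and 155 spleen and 69 and 59 LN cells. Medians were 5044, 4361, 6591 and 6789 UMIs a cell. No doublet caller was run and no cell was left out otherwise. Clusters were named X-like from marker lists.

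The members, lists, markers, tests and alternatives were chosen with earlier results of these data known. Named genes were the members, list members up to 4 per tissue by the interval bound nearest equality, the 5 genes most like each member, and flanking genes; other names were added after their values were seen, among them Psmd13, Pkp3, Isg15 and Bst2 within clusters, Ifi44, and the genes shown for cells picked by a member. Alternatives were TMM and DESeq2-type size factors, thinning, mean CPM per cell, leaving out deep cells, cells with a Foxp3 UMI, leaving out clusters, equal weights for clusters, no minimum CPM and a larger fold. Those without the cells that lead a gene, in a library or an LN cluster, and without shared barcodes were chosen after seeing the data. The calculations were tested on simulated data. Python 3.11.15, numpy 2.4.6, scipy 1.17.1, pandas 2.3.3 and matplotlib 3.10.9 were used.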

Additional observations from a re-analysis of the deposited data

Results flagged for a closer look

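Ifitm3 had opposite signs between the labels in the 2 tissues, with a log2 ratio, ICOS FC over ICOS WT, of 0.4684 in the spleen and -0.8992 in the LN. With 1 library per group the difference between the tissues was not tested. The spleen value rests on 89 and 128 UMIs, and it turned to -0.2582 in cells with a Foxp3 UMI.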

How the results depend on the processing

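No paired analysis was possible because each group was 1 library and no replicate could be left out. Between the labels, the LN log2 ratios kept their sign in all 10, 11 and 11 alternatives for Ifitm1, Ifitm2 and Ifitm3, at -2.91 to -0.63, -2.79 to -1.60 and -1.08 to -0.22. The Ifitm3 LN call of 1.5-fold ends in 3 of them: thinned, as mean CPM and with clusters weighted equally. The Ifitm3 spleen ratio (0.47) reversed to -0.26 in cells with a Foxp3 UMI and moved to 1.10 after thinning to 2000 UMIs; Ifitm2 in the spleen moved from -0.52 to -0.91 with clusters weighted equally. That weighting gave -0.63, -1.60 and -0.22 in the LN. Cells with a Foxp3 UMI gave -2.41, -2.79 and -1.08. Thinning gave -1.89 for Ifitm1 and -0.49 for Ifitm3, the mean CPM per cell -1.92 for Ifitm2 and -0.39 for Ifitm3, and leaving out the 5% deepest cells -0.79 for Ifitm1 and -0.72 for Ifitm3. Ifitm1 was -2.91 without clusters 6 and 7 and -2.42 without its leading cell, and Ifitm3 -0.75 without its 10 leading cells. Without the 10 leading cells, and in the spleen, Ifitm1 could give no ratio. The cause of these shifts was not tested.

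For LN over spleen no sign changed. The Ifitm1 bound of 9.65 (ICOS WT) became 9.49 with TMM and also 9.49 with DESeq2 factors, 7.18 thinned, 8.55 as mean CPM, 8.63 without deep cells, 7.39 in cells with Foxp3 and 8.71 without the 3 clusters. Under ICOS FC, 8.01 became 7.87 (TMM), 5.52, 6.99, 7.87 (without deep cells), 5.12 and 5.92. Ifitm2 (3.64) became 3.32 thinned, 3.18 as mean CPM and 3.36 without the 3 clusters under ICOS WT, and (1.79) 1.38 thinned and 1.43 without them under ICOS FC. Ifitm3 (5.11, ICOS WT) became 4.46 as mean CPM and 4.70 in cells with Foxp3.

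Counts of called genes, higher and lower, were 30 and 13 in the spleen, 61 and 58 in the LN, 294 and 26 (ICOS WT) and 323 and 37 (ICOS FC) for LN over spleen. No minimum CPM gave 357 and 203, 359 and 463, 1208 and 194, 1167 and 289, and a larger fold (2-fold; 3-fold between tissues) 15 and 3, 18 and 12, 132 and 3, 135 and 10. TMM and DESeq2 factors moved the last lower count to 61 and 60. With 1 library per group, depth limits only the counting error, and 3 counts correspond to 0.106 to 0.199 CPM.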
